A study of Homo sapiens with 6 samples.

Results

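The S100 genes studied here are 10 members of a family of small calcium-binding proteins, S100A4, S100A6, S100A8, S100A9, S100A10, S100A11, S100A12, S100A13, S100P and S100Z, out of 56305 genes in the count files. They were chosen by symbol, and they were selected on values of these same libraries, since S100A8 was already known to be higher on ZW27941. Their values on ZW27941 against DMSO, and any threshold call given for them, are therefore a description and not a test. Of the 10 members, 9 passed the filter on low counts, as did 20399 genes in all. The tenth, S100Z, had from 0 to 3 counts per library.

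RNA was sequenced from MOLM13, an established human acute myeloid leukemia (AML) cell line. The line carries an internal tandem duplication of FLT3 and a rearrangement of chromosome regions 9p22 and 11q23, both of which are shared by all samples. One group of 3 libraries came from cells given DMSO, the solvent, for 24 h, and the other group of 3 came from cells given 1 μM ZW27941 for 24 h. ZW27941 is a proteolysis-targeting chimera (PROTAC), a molecule with 2 ends that brings METTL3, the enzyme that writes N6-methyladenosine (m6A) on mRNA, to the VHL ubiquitin ligase for degradation. The comparison asks which transcripts differ after the degrader in 1 cell line, and no source used here says whether replicates were separate cultures, so the tests measure only the spread between these libraries.

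Each S100 protein folds around a pair of EF-hands, helix-loop-helix motifs that hold calcium, and most work as dimers that open on calcium binding and grip a target protein. S100A8 and S100A9 pair to form calprotectin, an abundant cytosolic complex of neutrophils and monocytes that, once released, sequesters metal ions and signals through TLR4 and RAGE. S100A12 (calgranulin C) belongs to the same myeloid group, while S100A4, S100A6, S100A10 and S100A11 occur in many cell types and bind myosin, annexins and ubiquitin ligase adaptors. Nearly all human S100 genes stand in a cluster on chromosome 1, and S100P, S100Z, S100B and S100G lie elsewhere.

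The libraries held from 143454176 to 178744976 counts on genes. Across all genes tested, 3333 (16.3%) were higher and 2816 (13.8%) were lower on ZW27941 at a Benjamini-Hochberg adjusted p under 0.05 by edgeR's quasi-likelihood test, and 45.8% of the called genes were lower, a share that was 57.9% with upper quartile scaling. The median log2 fold change was −0.0019, and the 5th and 95th percentiles were −0.51 and 0.42. All 10 AML markers examined, among them FLT3, MEIS1 and HOXA9, passed the filter. Of 16 markers of red cells, lymphocytes, platelets, epithelium and fibroblasts, HBB, HBA1 and PF4 had 0 counts in every library, 9 did not pass the filter, and the summed level was 23.3 to 24.1 CPM (TMM-normalized counts per 1e6 counts) in DMSO libraries and 20.3 to 21.3 CPM in treated ones. Most of that sum was KRT18 and KRT8, keratins of simple epithelia, and KRT18 fell from 12.7 ± 0.0874 to 10.2 ± 0.523 CPM (SD, n = 3 each).

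Among the members, S100A8, S100A9 and S100A12 were higher on ZW27941, and S100A4, S100A6, S100A10 and S100A11 were close to their DMSO levels. A rise was not limited to the myeloid group. S100A13, a member outside that group, had a log2 fold change of 0.24, and S100A3 and S100A1, outside the members, had 0.56 and 0.43. Of the 9 members tested, S100A8, S100A9, S100A12 and S100A13 were higher past the threshold, where the background over all genes was 16.3%, and S100A10 was lower, where it was 13.8%. The remaining 4, S100A4, S100A6, S100A11 and S100P, did not pass. The same split appeared in the values of single libraries, with 4 members whose ZW27941 values all lay above those of DMSO (background 21.7%), 1 member with all of them below (background 19.9%) and 4 that overlapped. Since this contrast chose the members, nothing is read from these shares. The count of 5 members fell to 3 without DMSO replicate 1 and to 3 without DMSO replicate 3, and in both cases S100A10 and S100A13 were the ones lost. The median log2 fold change of the 9 members was 0.11. In bulk RNA, a change in the share of cells that express a gene cannot be told apart from a change in the RNA of each cell.

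**Figure D1:**
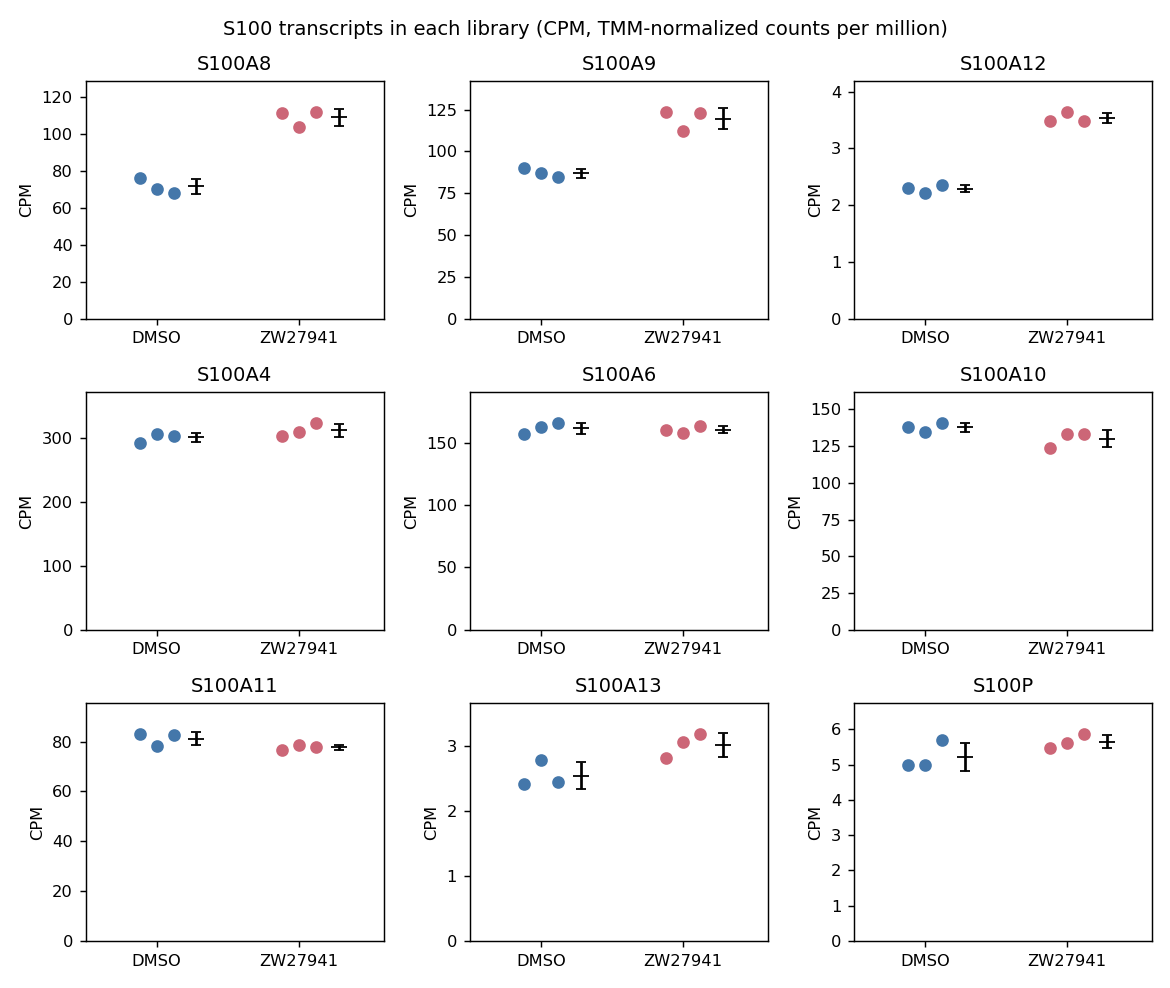
Each panel shows 1 S100 member, with the level in CPM (linear axis from 0) in the 3 DMSO libraries (blue) and the 3 ZW27941 libraries (red), and the mean ± SD in black beside each group. S100A8, S100A9, S100A12 and S100A13 are higher in every ZW27941 library than in any DMSO library, S100A10 is lower in every one, and the other 4 members overlap.

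S100A8, which codes for the smaller subunit of calprotectin (calgranulin A), stood at 76.2, 70.4 and 68.2 CPM in DMSO replicates 1, 2 and 3, and at 112, 104 and 112 CPM on ZW27941. The lowest ZW27941 library was well above the highest DMSO library. The means were 71.6 ± 4.16 and 109 ± 4.74 CPM (SD, n = 3 each), a log2 fold change of 0.61 (SE 0.035), which is a 1.52-fold difference. No other member with so many counts differed as much: the libraries held 10420 to 10925 counts of S100A8 in DMSO and 14927 to 20118 counts with the degrader.

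S100A9, the larger subunit (calgranulin B), had levels of 89.9, 86.8 and 84.5 CPM in DMSO and of 124, 112 and 123 CPM on ZW27941. These groups did not overlap either. The mean went from 87.1 ± 2.70 to 119.7 ± 6.25 CPM (SD, n = 3 each), a log2 fold change of 0.46 (SE 0.033). S100A12, the third calgranulin, was far less abundant, at 2.30, 2.22 and 2.35 CPM in DMSO and 3.48, 3.64 and 3.48 CPM on ZW27941. Its log2 fold change of 0.62 (SE 0.078) was close to that of S100A8, on 330 to 360 counts in DMSO and 525 to 628 on ZW27941. Within groups, the calgranulin levels varied by a coefficient of variation of 2.57% to 5.81%, and for S100A12 this was no more than the 5.41% that counting alone gives at its DMSO depth.

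Transcripts of both calprotectin subunits were higher on ZW27941, that of S100A8 by more than that of S100A9. S100A8 is also the gene on whose rise the members were selected, so their ratio is a description. For every 1 count of S100A9 there were 0.807 to 0.848 counts of S100A8 in the DMSO libraries and 0.903 to 0.920 in the treated libraries, so that the ratio was higher in all 3 treated libraries. The summed level of both went from 159 ± 6.84 to 229 ± 11.0 CPM (SD, n = 3 each). By contrast, the ratio of S100A12 to S100A8 counts lay between 0.0302 and 0.0345 without the degrader and between 0.0312 and 0.0352 with it, and these ranges overlapped. Together the 3 calgranulins made up 18.9% ± 0.904 of the counts of the 10 members in DMSO and 25.2% ± 0.996 on ZW27941 (SD, n = 3 each).

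Among 2429 genes with a mean level at least that of S100A8, 0 had a larger log2 fold change than S100A8 and 2 had a larger one than S100A9. Low genes differed more widely, and over the 12238 genes whose log2 CPM averaged 1 or more, 26 exceeded S100A8, 23 exceeded S100A12 and 71 exceeded S100A9. These ranks come from the contrast by which the members were selected and only place them among the other genes.

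S100A4 (metastasin, a partner of non-muscle myosin) was the most abundant member by counts, with 292, 307 and 304 CPM in DMSO and 304, 309 and 323 CPM on ZW27941. The groups overlapped, and the log2 fold change was 0.051 (95% interval −0.0057 to 0.11), or 0.027 with upper quartile scaling, 0.031 without DMSO replicate 1 and 0.022 without ZW27941 replicate 3. S100A6 (calcyclin, a partner of CACYBP) had 157, 162 and 166 CPM in DMSO and 160, 158 and 163 CPM on ZW27941. Its values also overlapped, with a log2 fold change of −0.0095 (95% interval −0.063 to 0.044) whose sign changed when library size alone was used for scaling (0.00056) and without DMSO replicate 3 (0.0097). S100A11 (calgizzarin, a partner of annexin A1) had 82.9, 78.1 and 82.4 CPM in DMSO and 76.5, 78.7 and 77.9 CPM on ZW27941. The S100A11 groups overlapped by DMSO replicate 2 alone, and the log2 fold change of −0.063 (SE 0.028) passed the threshold only with upper quartile scaling (−0.087) and without DMSO replicate 2 (−0.0901).

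S100A10 (p11), unusual in the family because its EF-hands no longer bind calcium, forms a heterotetramer with annexin A2. It had 138, 134 and 141 CPM in DMSO and 124, 133 and 134 CPM on ZW27941. Every ZW27941 library was below every DMSO library, but the highest of the former and the lowest of the latter were nearly level. The log2 fold change was −0.083 (SE 0.029), and the call was lost with library size scaling (−0.073) and without DMSO replicate 1 (−0.0797), DMSO replicate 3 (−0.067) or ZW27941 replicate 1 (−0.047). S100A13, which binds FGF1 and IL1A for their export, had 2.41, 2.78 and 2.44 CPM in DMSO and 2.81, 3.06 and 3.18 CPM on ZW27941. The groups were apart by a narrow gap, with a log2 fold change of 0.24 (SE 0.085). S100A13 lost its call with upper quartile scaling (0.22) and without DMSO replicate 1 (0.21), DMSO replicate 3 (0.22), ZW27941 replicate 2 (0.23) or ZW27941 replicate 3 (0.20).

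S100A13 also has an uncertain count, because 33.5% of its exon bases lie in other genes, AL162258.1 on the same strand and S100A1 on the opposite one, and the sources used here do not say whether counting used strand. S100P, a ligand of RAGE and a partner of ezrin that is encoded on chromosome 4, had 5.00, 4.99 and 5.69 CPM in DMSO and 5.48, 5.62 and 5.86 CPM on ZW27941. DMSO replicate 3 lay among the ZW27941 values, and the log2 fold change was 0.11 (95% interval −0.027 to 0.25). S100Z, a relative of S100P, had 0, 0 and 3 counts in DMSO and 0, 1 and 2 counts on ZW27941, which is at or under the limit of 3 counts that a count of 0 allows (0.0168 to 0.0209 CPM, counting error only).

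**Figure D2:**
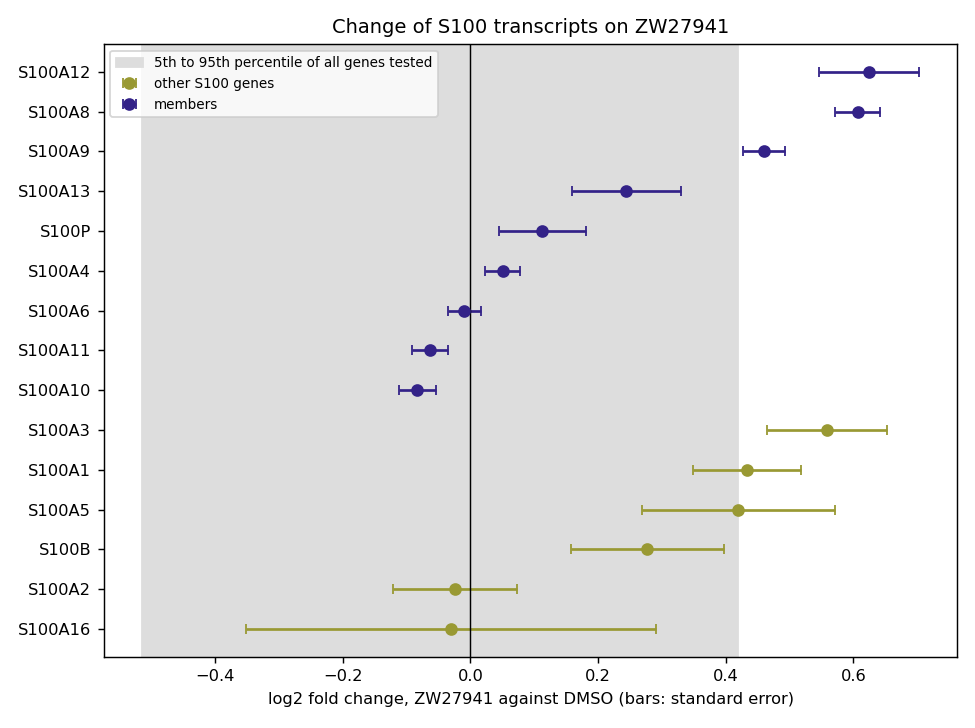
Points show the log2 fold change (horizontal axis, ZW27941 against DMSO) of the 9 members tested (dark blue) and 6 other S100 genes (olive), with bars of 1 standard error, and the grey band spans the 5th to 95th percentile of all genes, −0.51 to 0.42. Among the members, S100A12, S100A8 and S100A9 lie beyond the band, and S100A4, S100A6, S100A10 and S100A11 lie close to 0. Of the other S100 genes, S100A3 (0.56) and S100A1 (0.43) also lie beyond it, and S100A5 (0.42) is at its edge.

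Levels of different genes were compared per kilobase of the principal GENCODE transcript. S100A4 led the members in DMSO with 502 ± 12.5 CPM per kb (SD, n = 3), which was 2.07 times the level of S100A6 at 243 ± 6.89 CPM per kb. S100A9 (151 ± 4.68 CPM per kb), S100A8 (137 ± 7.95), S100A11 (137 ± 4.51) and S100A10 (115 ± 2.64) followed, and of these neighbours only S100A8 and S100A11 overlapped. S100A10 was 25.9 times above S100A12 (4.43 ± 0.130 CPM per kb), the top of a low trio in which S100A12 overlapped with S100P (4.08 ± 0.316) and S100P with S100A13 (3.71 ± 0.299).

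On ZW27941 the order of the members per kb changed at 1 place. S100A8 (208 ± 9.06 CPM per kb) and S100A9 (207 ± 10.8 CPM per kb) were level and stood next to S100A6 (241 ± 3.999 CPM per kb), apart from S100A11 (131 ± 1.87 CPM per kb). S100A12, at 6.83 ± 0.175 CPM per kb, no longer overlapped with S100P at 4.42 ± 0.151. The choice of length bears on this order: with all annotated exons of a gene in place of the principal transcript, S100A8 was at 71.2 CPM per kb in DMSO, in place 6 rather than 4, and S100A9 was above S100A6 on ZW27941 (207 against 165 CPM per kb). On that length S100A8 and S100A9 were no longer level on ZW27941, since S100A8 was at 108 CPM per kb, below S100A11 at 114.

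**Figure D3:**
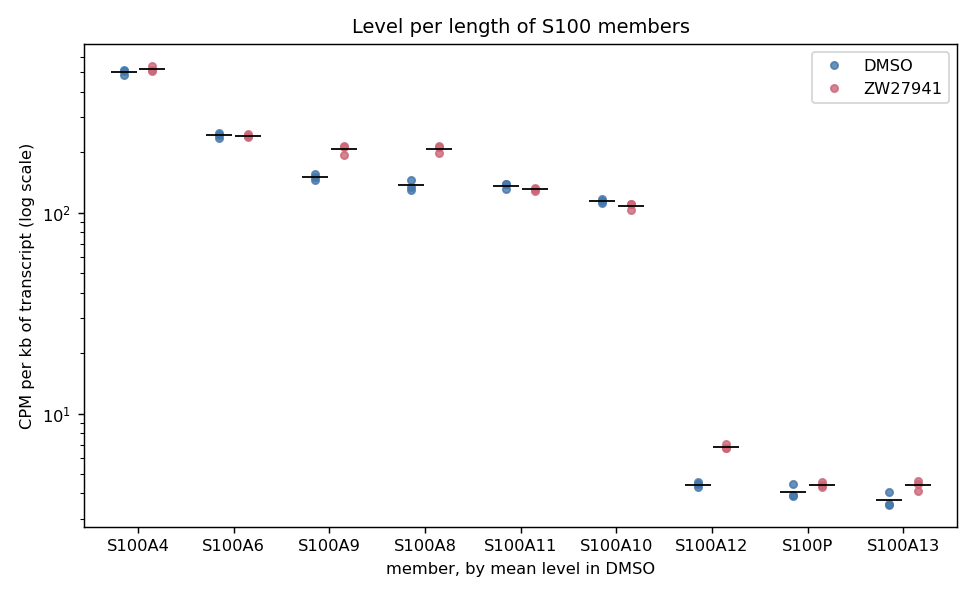
The level of each of the 9 members in CPM per kb of principal transcript (log axis) is shown for 3 DMSO libraries (blue) and 3 ZW27941 libraries (red), with black marks at the means. Members fall into an upper set of 6, from S100A4 at 502 to S100A10 at 115 CPM per kb in DMSO, and a lower set of 3, from 4.43 to 3.71 CPM per kb.

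The first 100 bases upstream of the RefSeq start site (build GRCh38.p14, read 5′ to 3′ on the transcribed strand) are shown for the 3 calgranulins and for 3 members whose levels overlapped between conditions. Capitals mark TATAAA, the letters of a TATA box, and GGGCGG, those of a GC box, of which the longer run in S100A6 holds 2 overlapping copies. For S100A8, the second of 3 annotated start sites is shown. It was picked because TATAAA begins between bases −35 and −20 from that start, which holds at neither of the others.
S100A8, chr1:153391074-153391173, minus strand: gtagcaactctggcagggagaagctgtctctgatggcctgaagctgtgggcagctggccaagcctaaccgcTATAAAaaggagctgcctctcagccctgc
S100A9, chr1:153357754-153357853, plus strand: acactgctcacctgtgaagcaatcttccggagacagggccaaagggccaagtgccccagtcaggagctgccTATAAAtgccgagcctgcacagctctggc
S100A12, chr1:153375622-153375721, minus strand: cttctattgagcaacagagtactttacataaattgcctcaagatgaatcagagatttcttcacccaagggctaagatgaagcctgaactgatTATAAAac
S100A4, chr1:153545807-153545906, minus strand: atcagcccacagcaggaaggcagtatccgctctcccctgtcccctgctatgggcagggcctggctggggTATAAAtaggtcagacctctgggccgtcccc
S100A6, chr1:153535992-153536091, minus strand: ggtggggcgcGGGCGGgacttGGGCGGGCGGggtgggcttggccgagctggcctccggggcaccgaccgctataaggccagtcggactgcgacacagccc
S100A11, chr1:152037005-152037104, minus strand: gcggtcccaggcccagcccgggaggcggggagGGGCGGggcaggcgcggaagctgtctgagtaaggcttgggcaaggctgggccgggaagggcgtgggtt

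The letters of a TATA box near the start were found both in members that were higher on ZW27941 and in members that overlapped. All 10 members had an entry in the RefSeq table. TATAAA began at base −29 in S100A9 and at the second start sites of S100A8 and S100A13, at −31 in S100A4 and at −28 in S100P. The letters thus began in the window from −35 to −20 in 5 of the 14 promoters listed for the 10 members, and in 2.21% of the 35116 human promoters of the same table, on the transcribed strand. In S100A12 the letters lie nearer to the start and outside that window. The GC box letters GGGCGG occurred on either strand in the 300 bases around a start in S100A6 (3 matches), S100A9, S100A10, S100A11 and S100A13, which is 5 members, and in 45.0% of all promoters. A member with several start sites was counted if any of them had a match, while the shares over all promoters are per start site.

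For factors of the myeloid lineage, TTGCNNAA, letters bound by C/EBP proteins, were found in the promoters of S100A11 and S100A12 and in 10.5% of all promoters. GAGGAA, letters bound by PU.1, were found in 4 members, S100A8, S100A9, S100P and S100Z, and in 27.9% of all promoters. All motifs were searched as given, on both strands unless stated. These matches are a description of the sequence, and their relation to the expression values was not tested.

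GGACT, a common form of the sequence in which METTL3 writes m6A, was also counted in the principal transcripts. It occurred 1 time in S100A4, 2 times in S100A6, 1 time in S100A10, 1 time in S100A13 and 3 times in S100P. The transcripts of S100A8, S100A9, S100A11, S100A12 and S100Z held 0. Of the 9 members tested 5 had GGACT, where 68.4% of 1267 tested genes with transcripts of 518 to 1279 bases had it. The data hold no m6A measurement, and no match says only that these letters are not in that transcript.

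Other S100 genes were low, with 6 of 11 passing the filter, and 3 of these were higher and 0 lower on ZW27941 (background 16.3% higher, by edgeR, with 4 higher and 0 lower when p was not adjusted, and 2 higher and 0 lower by DESeq2). S100A3, next to S100A4 in the cluster, had 1.63, 1.505 and 1.34 CPM in DMSO and 2.18, 2.19 and 2.20 CPM on ZW27941. S100A3 rose by 0.56 on the log2 scale (SE 0.094, adjusted p = 9.97e-05, edgeR quasi-likelihood with Benjamini-Hochberg). S100A1, a regulator of calcium release in muscle, went from 1.90 ± 0.0893 to 2.57 ± 0.0486 CPM (SD, n = 3 each; log2 fold change 0.43), and it shares 18.3% of its exon bases with other genes, S100A13 among them.

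S100A5 went from 0.534 ± 0.0442 to 0.717 ± 0.0759 CPM (SD, n = 3 each; log2 fold change 0.42, SE 0.15), and this call was lost with upper quartile scaling (0.396), by DESeq2 (0.42) and without DMSO replicate 1 (0.37), DMSO replicate 2 (0.41), ZW27941 replicate 2 (0.33) or ZW27941 replicate 3 (0.45). S100B, a glial S100 protein encoded on chromosome 21, was at 0.880 ± 0.0743 and 1.07 ± 0.0794 CPM (log2 fold change 0.28) and did not pass. S100A2 and S100A16 had log2 fold changes of −0.024 and −0.030, neither past the threshold. S100A7, S100A7A, S100A7L2, S100A14 and S100G had at most 19 counts in any library, and S100A7A, S100A7L2 and S100G had 0 in all of them.

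The 3 calgranulin genes lie close together, with the pseudogene LAPTM4BP1 between S100A12 and S100A8. S100A9, S100A12 and S100A8 occupy a stretch of chromosome 1 in which the lower ends of S100A9 (chr1:153357854-153361023, plus strand) and S100A8 (chr1:153390032-153422583, minus strand) are 32.2 kb apart, with S100A12 (chr1:153373711-153375621, minus strand) between them. From 144.6 to 157.3 kb further on, S100A6, S100A5, S100A4 and S100A3 follow each other with log2 fold changes of −0.0095, 0.42, 0.051 and 0.56. S100A10 and S100A11 lie far away on the other side, at 1407 and 1358 kb from S100A8, and had −0.083 and −0.063.

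Most other genes within 500 kb of a member on chromosome 1 did not pass the filter, and 23 of 72 did. Of these, 4 rose (background 16.3%), 4 fell (background 13.8%) and 15 did not pass, with a median log2 fold change of −0.021. TCHH, which codes for trichohyalin of the hair follicle, rose by 1.37 (SE 0.21) from 0.193 ± 0.0299 to 0.497 ± 0.0118 CPM (SD, n = 3 each), and OAZ3, an antizyme of testis, by 0.76 from 0.248 to 0.419 CPM. Both are near the detection limit, and OAZ3 lost its call without ZW27941 replicate 3 (0.62). SNAPIN, a SNARE-associated protein, rose by 0.10, while SNX27, a sorting nexin of endosomes, fell by 0.22, RAB13, a small GTPase, fell by 0.21 and CRTC2, a coactivator of CREB, fell by 0.080. The count of 8 was 5 without DMSO replicate 2. SNAPIN and CRTC2 each lost their call in 4 of 13 alternatives, SNAPIN with upper quartile scaling and without DMSO replicate 1, DMSO replicate 2 or ZW27941 replicate 2 (lowest 0.078), and CRTC2 with library size scaling and without DMSO replicate 1, DMSO replicate 2 or ZW27941 replicate 1 (nearest to 0 at −0.062). PGLYRP4, a peptidoglycan recognition protein 59.9 kb from S100A8, had a log2 fold change of 0.57 (SE 0.35) at 0.0896 and 0.132 CPM and did not pass. It was named after its value was seen.

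**Figure D4:**
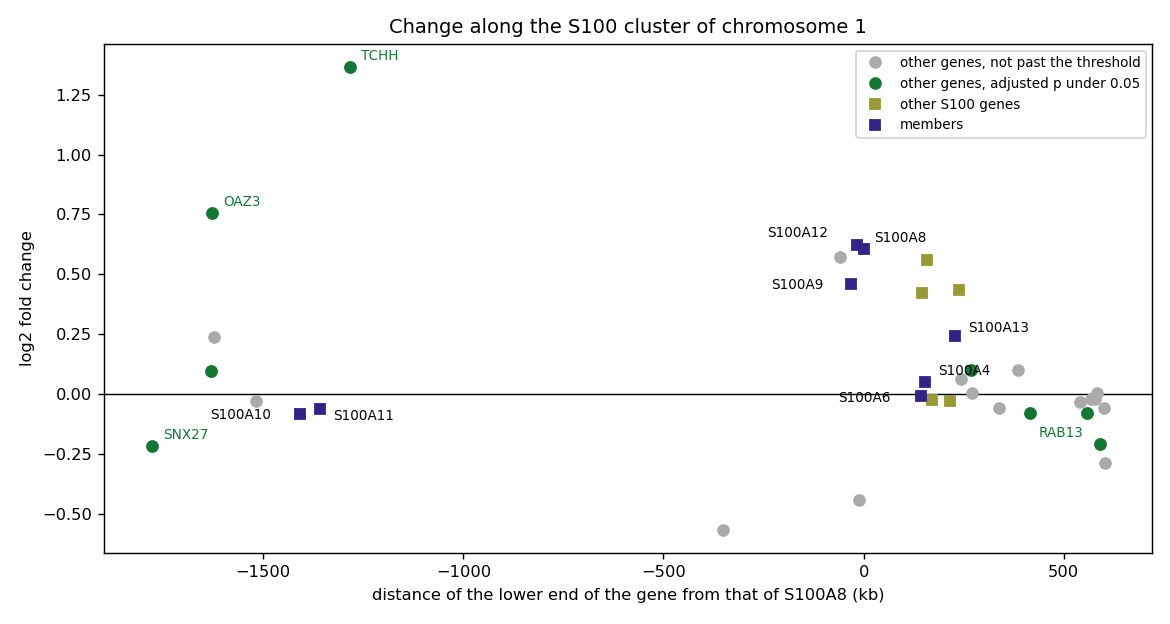
The log2 fold change on ZW27941 (vertical axis) is plotted against distance from S100A8 in kb for the S100 members on chromosome 1 (dark blue squares), other S100 genes (olive squares) and other genes within 500 kb of one of these members (circles, green where the adjusted p was under 0.05). S100A8, S100A9 and S100A12 sit together at 0.46 to 0.62, and S100A4 lies between S100A5 and S100A3, which have higher values.

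Receptors of extracellular S100 proteins and their adaptors were measured because calprotectin, S100A12 and S100P act through them. Of 17 genes, 6 rose (background 16.3%), 1 fell (background 13.8%) and 10 did not pass (median log2 fold change 0.060). TLR4, the receptor for calprotectin, went from 3.08, 3.57 and 3.14 CPM in DMSO to 4.36, 4.57 and 4.12 CPM on ZW27941, and the groups did not overlap. TLR4 rose by 0.41 (SE 0.077, adjusted p = 3.12e-04, edgeR quasi-likelihood with Benjamini-Hochberg). MYD88, the adaptor downstream of TLR4, rose by 0.16 (SE 0.028) from 45.2 ± 0.718 to 50.4 ± 1.22 CPM (SD, n = 3 each).

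TIRAP, which brings MYD88 to the membrane, rose by 0.25 (SE 0.087), but it lost its call in 8 of 13 alternatives, with upper quartile scaling (0.22), by DESeq2 (0.24), with no filter (0.25) and without each library except DMSO replicate 1 (lowest 0.20, without DMSO replicate 2). CD14, the coreceptor of TLR4, fell by 0.39 from 1.54 ± 0.174 to 1.18 ± 0.109 CPM (SD, n = 3 each), a call that was lost without DMSO replicate 1 (−0.30) or ZW27941 replicate 1 (−0.32). AGER, which codes for RAGE, had a log2 fold change of 0.12 at 13.96 and 15.2 CPM, with an adjusted p of 0.0495 by edgeR's quasi-likelihood test after Benjamini-Hochberg adjustment and was named outside the rule as the receptor of S100A12 and S100P. AGER was the nearest to the threshold among the receptor genes that rose, and their number was 5 with RLE scaling rather than 6. Its own call was not followed through the alternatives.

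Intracellular partners of the S100 proteins went both ways. Of 22 partner genes that passed the filter, 8 rose (background 16.3%), 8 fell (background 13.8%) and 6 did not pass, with a median of −0.017, and the count of 16 was 10 without DMSO replicate 2, DMSO replicate 3, ZW27941 replicate 1 or ZW27941 replicate 2. ANXA2, the annexin that S100A10 joins, had 141, 139 and 136 CPM in DMSO and 149, 152 and 156 CPM on ZW27941. ANXA2 rose by 0.14 (SE 0.025, adjusted p = 2.20e-04, edgeR quasi-likelihood with Benjamini-Hochberg) while S100A10 was lower. Counts of S100A10 per count of ANXA2 lay between 0.969 and 1.04 without the degrader and between 0.829 and 0.876 with it, so the groups did not overlap.

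ANXA1, the partner of S100A11, fell by 0.21 (SE 0.034) from 29.5 ± 1.25 to 25.5 ± 0.552 CPM (SD, n = 3 each). CACYBP, which links S100A6 to ubiquitin ligases, had a log2 fold change of 0.068 and an adjusted p of 0.0490 (edgeR quasi-likelihood, Benjamini-Hochberg), and this call was lost in 9 of 13 alternatives, among them each fit that left out a library other than DMSO replicate 1 (0.051 to 0.077). MYH9, the heavy chain of non-muscle myosin that S100A4 binds, had 1329 ± 31.2 and 1297 ± 6.09 CPM (SD, n = 3 each; log2 fold change −0.035) and did not pass.

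The largest rises among the partners were those of TUBB, a tubulin bound by calprotectin, with 0.19, of CYBB, the catalytic subunit of the phagocyte NADPH oxidase that calprotectin helps to activate, with 0.15, and of AHNAK, a scaffold of the S100A10 and annexin A2 complex, with 0.14. The CYBB call was lost with upper quartile scaling (0.13) and without DMSO replicate 2 (0.11), DMSO replicate 3 (0.16), ZW27941 replicate 1 (0.11) or ZW27941 replicate 2 (0.16), and TUBB has close paralogs that can share its reads. SUGT1, a cochaperone that binds S100A6, fell by 0.18 (SE 0.026) and FKBP4, an immunophilin, fell by 0.13 (SE 0.026). SYT1, FGF1 and IL1A, which take part in export with S100A13, did not pass the filter, with at most 19 counts in a library.

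Transcription factors of myeloid cells or of S100 promoters were split evenly, with 5 of 15 higher (background 16.3%), 5 lower (background 13.8%) and 5 not past the threshold (median 0.014). KLF4, a factor of monocyte differentiation, rose by 0.37 (SE 0.036), RARA, the retinoic acid receptor alpha, by 0.19 (SE 0.026) and HIF1A, the hypoxia-inducible subunit, by 0.14 (SE 0.028). FOS and JUNB, subunits of AP-1, fell by 0.38 (SE 0.030) and 0.16 (SE 0.025), and MYC fell by 0.15 (SE 0.024). IRF8 fell by 0.12 (SE 0.026) and STAT3 by 0.098, while SPI1, which codes for PU.1, rose by 0.11 and CEBPA by 0.080. CEBPB and CEBPD, with log2 fold changes of 0.092 and 0.014, did not pass. CEBPE, a factor of late granulocyte maturation, had 1.602 ± 0.0852 and 1.68 ± 0.125 CPM (SD, n = 3 each; log2 fold change 0.067) and did not pass.

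Among markers of later myeloid cells, a list chosen with earlier results of these data known, most but not all were higher on ZW27941. Of 18 such genes 16 passed the filter, and 10 rose (background 16.3%), 2 fell (background 13.8%) and 4 did not pass (median log2 fold change 0.21), while the summed level of the list lay between 1607 and 1642 CPM in DMSO and between 1829 and 1886 CPM on ZW27941. Most of that sum was LYZ (lysozyme), which rose by 0.27 from 963 ± 31.2 to 1160 ± 34.7 CPM (SD, n = 3 each). FCN1, a lectin of classical monocytes, rose by 1.08 (SE 0.11) from 0.930 ± 0.103 to 1.97 ± 0.205 CPM, FPR1, a formyl peptide receptor, by 0.90 (SE 0.21) from 0.308 ± 0.111 to 0.576 ± 0.0776 CPM, and MNDA, a nuclear protein of myeloid cells, by 0.34 (SE 0.035) from 26.2 ± 1.27 to 33.1 ± 0.735 CPM. CSTA (cystatin A) fell by 0.11, a call that was lost without DMSO replicate 3 (−0.088) or ZW27941 replicate 1 (−0.075), and CD14 fell as described. LCN2 and LTF, genes of neutrophil granules, had at most 4 counts in a library. The share of the tested list called in either direction was 75%, next to 72.7% of the partners and 66.7% of the factors. The part of the late myeloid markers in the calgranulin values was not tested.

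**Figure D5:**
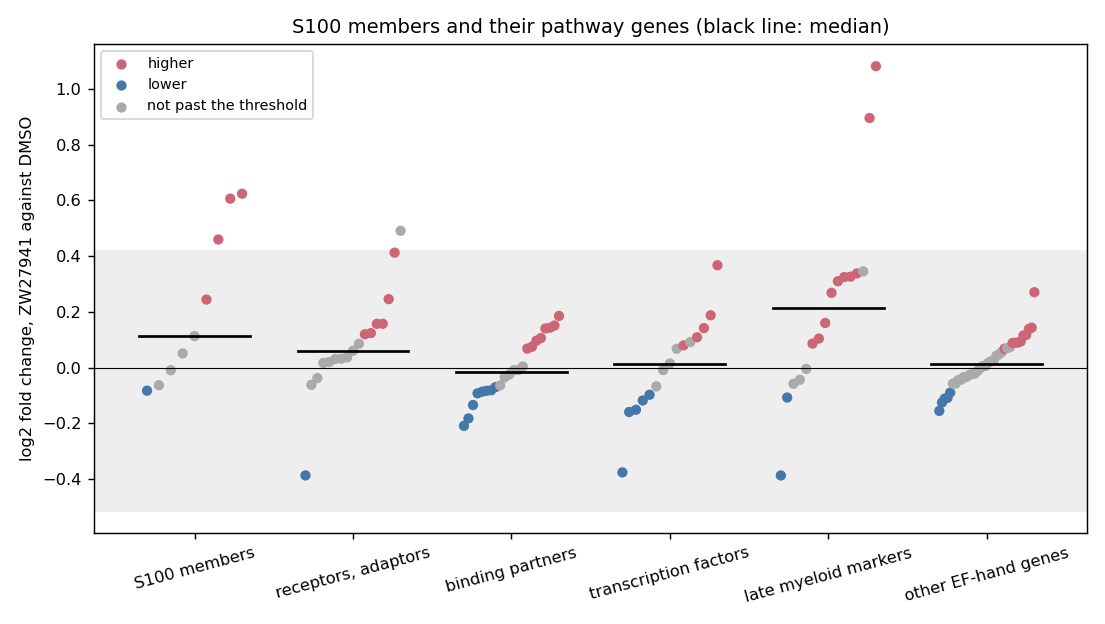
Each point is the log2 fold change of 1 gene on ZW27941 against DMSO, in 6 lists (horizontal axis), colored red where the gene was higher, blue where lower and grey where it did not pass, with black lines at the medians and a grey band from the 5th to the 95th percentile of all genes. The late myeloid list has the highest median, 0.21, next to 0.11 for the S100 members and 0.060, −0.017, 0.014 and 0.011 for receptors, partners, factors and other EF-hand genes.

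Other proteins with EF-hands, a list of 36 genes that all passed the filter, had a median log2 fold change of 0.011, with 10 higher (background 16.3%), 5 lower (background 13.8%) and 21 not past the threshold. The list ran from −0.16 to 0.27. These values lie below those of the calgranulins, but the calgranulins belong to members selected on this contrast. The sizes are therefore set side by side only as a description. EHD4, an endosomal ATPase, rose by 0.27 (SE 0.030), SDF4, a calcium-binding protein of the Golgi, by 0.14 and MYL12A, a myosin light chain, by 0.14. SRI (sorcin) fell by 0.16, CAPNS1, the small subunit of calpains, by 0.13 and HPCAL1, a neuronal calcium sensor relative, by 0.11.

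The profile of S100A8 over the 6 libraries was compared with that of each of 12238 genes as the root mean square difference of log2 CPM relative to the DMSO mean. The nearest were SDF2L1 (0.04996), an endoplasmic reticulum protein, AGT (0.05004), which codes for angiotensinogen, RP11-84C10.2 (0.0507), ADPRH (0.0560), an ADP-ribosylarginine hydrolase, and RP11-448G15.3 (0.0566). Among the members, S100A12 came closest with 0.0824 in place 16, followed by S100A9 with 0.108 in place 29, and S100A13 was in place 676. The widely expressed members stood far down, with S100A4 in place 4412 and S100A10 in place 9641. The 6 points of each profile share their libraries and the contrast that chose the members, so the places are a description.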

How the data were processed

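The authors aligned paired-end NovaSeq reads of total RNA to hg38 with HISAT2 and counted them per gene with HTSeq 2.0.3 (SAMtools 1.19.2), per the labels, and deposited 1 file of raw read counts per library. Strand setting, library kit and annotation release are not given in the sources used here. Between 37.4% and 39.8% of tallied reads were assigned to no gene, which includes the unaligned, the ambiguous (2.69% to 2.80%) and the not uniquely placed (3.63% to 5.25%). These rows were left out. The labels plan 50 M raw reads a sample (M, 1e6), while HTSeq tallied from 229.5 to 287.6 M per library, a difference whose cause was not tested.

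Groups came from the labels. Counts of all 56305 genes were filtered with filterByExpr, scaled by TMM and compared with edgeR 4.0.16 (quasi-likelihood test, 2-sided, R 4.3.3) over all 20399 genes kept, and p-values were adjusted by Benjamini-Hochberg with a threshold of 0.05. SEs are the log2 fold change over the root of F. The same steps were tested on simulated data. Replicates differed by more than sampling noise (chi-square per degree of freedom 4.35 to 11.6), the highest value for a pair with ZW27941 replicate 3, so no library was counted 2 times. Alternatives were other scalings (RLE, upper quartile, library size), DESeq2 1.42.0, no filter, a minimum of 10 counts in every library, a replicate block and leaving out each library.

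The members and gene lists were chosen with earlier results of these data known. Named were all members, other S100 genes past the filter, ANXA1, ANXA2, CACYBP, MYH9, TLR4 and CEBPE, in each list the 3 largest rises and falls among called genes, and the 5 genes nearest to S100A8 in profile whose log2 CPM averaged 1 or more, while genes named otherwise were named for their role or place after values were seen. Lengths and GGACT counts came from principal transcripts of GENCODE release 29, found for all 9 members tested but for only 63.5% of genes tested. Promoters and positions came from RefSeq GRCh38.p14.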

Additional observations from a re-analysis of the deposited data

How the results depend on the processing

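Of 714 log2 fold changes recomputed under 13 alternatives, 655 kept their direction and their side of the threshold, and of 104 counts of genes 97 stayed within 1.5 times the reported one. S100A8, S100A9 and S100A12 did so in every one, with log2 fold changes of 0.57 to 0.65, 0.44 to 0.50 and 0.60 to 0.64. The refits reuse the libraries on which the members were selected, so for the members they show only the effect of the processing. With upper quartile scaling S100A11 (−0.087) passed and S100A13 (0.22) did not, and with library size alone S100A10 (−0.073) did not pass and S100A6 changed sign (0.00056). Leaving out 1 library at a time gave 3 to 6 members past the threshold, 10 to 15 partners and 5 to 8 genes near the cluster. The same fits gave log2 fold changes of −0.10 to −0.047 for S100A10, −0.090 to −0.047 for S100A11, 0.20 to 0.31 for S100A13, −0.031 to 0.0097 for S100A6, −0.049 to 0.018 for S100A2 and −0.20 to 0.16 for S100A16. Among those that never passed, S100A4 ran from 0.022 to 0.070, S100P from 0.081 to 0.18, MYH9 from −0.051 to −0.018 and CEBPE from 0.014 to 0.13. The cause of these changes was not tested. All genes called numbered 4836 to 6287.

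Same-numbered libraries did not deviate together (correlations −0.012, 0.012 and 0.017). With 3 libraries per group, these values cannot settle whether the numbers pair the samples. With a replicate block, 1 call was lost among the named genes, that of CACYBP (log2 fold change 0.068, adjusted p = 0.0652 edgeR quasi-likelihood, Benjamini-Hochberg), and the members past the threshold remained 5 in number. Depth limits S100Z, S100A16 and the other genes under 100 counts, where counting error alone is wide.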
